A study of Mus musculus with 6 samples.

Results

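Of the 8 genes for nasal gland and airway secreted proteins described here, 6 read far above the other arrays in 1 array of the series, the one labelled knockout replicate 3. One of the 8, the club cell secretoglobin gene Scgb1a1, stayed at background in every array, and Scgb1c1 was not measured. The genes were Obp1a, Bpifa1, Muc5b, Scgb1a1, Scgb1c1, Reg3g, Aqp5 and Ltf. They were taken by name, and every probe set (a group of oligonucleotides read as 1 value) whose platform annotation names exactly 1 of them was used. This gave 7 genes with 1 probe set each, of 18193 genes with 34945 such probe sets in all. No probe set of that kind names Scgb1c1, so it has no value here. The names were chosen on the contrast between that array and the other 5, so the values of that contrast are given as a description, with no test.

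The series compared retinas of wild-type (wt/wt) and homozygous knockout (ko/ko) mice of the strain BALB/c AJ at post-natal day 40, with 3 arrays labelled for each genotype. The deleted gene is Nxnl2, which encodes a thioredoxin-like protein known as rod-derived cone viability factor 2. Both genotypes were housed under the same light cycle, the labels name no agent, and the pigment epithelium was removed from the retinas. The number of animals behind a sample is not in the labels, nor whether replicates are different animals. The p-values below therefore cover the spread among these samples alone, and that spread may be technical. The knockout allele's construction is not given in the labels.

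The arrays report RMA values on a log2 scale, where a difference of 1 is 2-fold. Background was read from 27 probe sets for Bacillus transcripts, which match no mouse gene, and their highest value lay between 4.130 and 4.598 in the 6 arrays. The array labelled knockout replicate 3 goes against its label in 2 ways. The brighter Nxnl2 probe set read 9.21 there, between 3.73 and 3.78 in the other knockout arrays and between 11.38 and 11.45 in wild type. Rod photoreceptor markers also differed: 13 of 13 measured genes read over 2 log2 units under the mean of the other 5 arrays, and 4 were above the highest Bacillus control, so the markers that define most retinal cells were at or near background in a sample labelled retina. Its correlation with the other arrays over probe sets was between 0.848 and 0.853, and pairs of the other 5 arrays gave between 0.994 and 0.996.

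The glands and surface epithelium of the nose and airways coat the mucosa with a fluid layer that traps particles, kills microbes and carries odorants to olfactory neurons. Its proteins come in functional classes. Lipocalins such as Obp1a and BPI fold proteins such as Bpifa1 bind small hydrophobic ligands or lipids, gel-forming mucins such as Muc5b make the mucus, secretoglobins are small secreted proteins of glands and club cells, Reg3g and Ltf act against bacteria, and Aqp5 lets water cross the apical membrane of gland cells. These are not classical products of the neural retina.

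Promoter windows were available from RefSeq (GRCm38.p6) for 6 of the 8 genes: Aqp5, Bpifa1, Ltf, Obp1a, Reg3g and Scgb1c1. Muc5b and Scgb1a1 were not among them. The 250 bases before the annotated start are shown for 4 genes, because 3 of them carry the core promoter motif TATAAA just ahead of the start and 1, Aqp5, has a window of another base composition. They lie at chrX:78091375-78091624 on the minus strand (Obp1a), chr2:154142630-154142879 on the plus strand (Bpifa1), chr6:78468875-78469124 on the minus strand (Reg3g) and chr15:99590778-99591027 on the plus strand (Aqp5). Each is written 5′ to 3′ on the gene's strand, and capitals mark TATAAA or its reverse complement TTTATA.
Obp1a: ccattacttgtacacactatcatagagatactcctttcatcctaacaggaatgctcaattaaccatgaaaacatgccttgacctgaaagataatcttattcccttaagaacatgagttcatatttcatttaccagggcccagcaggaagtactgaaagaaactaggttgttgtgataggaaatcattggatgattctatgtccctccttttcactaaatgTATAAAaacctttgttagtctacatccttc
Bpifa1: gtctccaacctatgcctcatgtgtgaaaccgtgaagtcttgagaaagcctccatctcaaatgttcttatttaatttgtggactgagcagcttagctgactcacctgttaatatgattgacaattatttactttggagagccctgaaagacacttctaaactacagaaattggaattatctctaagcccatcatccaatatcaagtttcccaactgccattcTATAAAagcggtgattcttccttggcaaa
Reg3g: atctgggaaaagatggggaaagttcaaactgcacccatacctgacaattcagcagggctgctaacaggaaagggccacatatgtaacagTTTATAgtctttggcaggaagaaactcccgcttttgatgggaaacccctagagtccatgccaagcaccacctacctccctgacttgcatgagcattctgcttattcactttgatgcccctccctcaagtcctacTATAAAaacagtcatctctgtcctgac
Aqp5: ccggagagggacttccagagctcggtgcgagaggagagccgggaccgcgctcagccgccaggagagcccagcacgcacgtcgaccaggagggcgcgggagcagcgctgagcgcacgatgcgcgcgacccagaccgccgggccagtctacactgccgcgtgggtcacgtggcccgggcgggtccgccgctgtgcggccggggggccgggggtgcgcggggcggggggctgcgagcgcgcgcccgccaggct

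The motif TATAAA stands on the gene's strand 30 bases before the start of Obp1a, 29 before that of Bpifa1 and 27 before that of Reg3g. Reg3g has it once more on the opposite strand, farther upstream. The windows of Aqp5, Ltf and Scgb1c1 do not hold it on either strand. In all 32851 RefSeq mouse promoter windows of 300 bases (250 before and 50 after the start), 8.32% hold TATAAA on the gene's strand and 13.6% on either strand, and 2.08% hold it on the gene's strand between 40 and 11 bases before the start. The forkhead-type motifs TGTTTAC and TATTTAC were searched on both strands. The first was in none of the 6 windows, and in 3.65% of all windows. The second was in that of Bpifa1 alone, and in 3.04% of all windows. G and C made up 79.7% of the Aqp5 window, 58.7% of that of Ltf, 54.3% of Scgb1c1, 47.3% of Reg3g, 42.3% of Bpifa1 and 36.3% of Obp1a, with a median of 52.7% over all windows. These matches describe letters in a window and were not tested against the expression values.

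Of the 7 measured genes, 6 read more than 2 log2 units above the mean of the other 5 arrays in the array labelled knockout replicate 3, where 7.44% of all 18193 genes did and 4.49% read as far below. The smallest of the 6 differences was 5.78, for Aqp5, and the next gene down was Scgb1a1 with -0.04. In none of the other 5 arrays, each set against the remaining 4, did a member lie more than 2 above, and the largest member difference there was 0.58. Since these are tissue samples, more cells of a type and more RNA per cell cannot be told apart in any of these values. Where a gene was below the highest Bacillus control in the other arrays, its fold is a lower bound, computed against that control's level in each of the 5 arrays.

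Obp1a, a lipocalin secreted into nasal mucus that carries odorants, was at background in the 5 arrays and far above it in the sixth. Its probe set read 2.88, 2.99 and 3.54 in wild-type replicates 1 to 3, 3.02 and 2.94 in knockout replicates 1 and 2, but 14.12 in the sixth, labelled knockout replicate 3. Against 3.07 ± 0.26 (SD, n = 5) this is a log2 difference of 11.05, or at least 886-fold. The highest of the 5 was wild-type replicate 3, still below the controls, and the wild-type and knockout values of the 5 overlap.

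Bpifa1, also called PLUNC, is a BPI fold protein of upper airway epithelium that binds lipids and lowers surface tension. Its probe set read 3.31, 3.11 and 3.40 in wild type, 3.46 and 3.07 in knockout replicates 1 and 2, but 14.12 in the sixth array. The mean of the 5 was 3.27 ± 0.17 (SD, n = 5), which gives a log2 difference of 10.85 and at least 884-fold. As with Obp1a, all values of the other 5 arrays lie below the highest Bacillus controls of those arrays, and the groups overlap.

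Muc5b, the gel-forming mucin of submucosal glands and of airway clearance, was one of the 2 members above background throughout. Its probe set read 4.78, 5.35 and 5.09 in wild type, 5.15 and 5.27 in knockout replicates 1 and 2, but 11.93 in the sixth array. The mean of the 5 was 5.13 ± 0.22 (SD, n = 5), and the difference of 6.81 corresponds to 112-fold. Because all 5 values exceed the highest control, this fold is a measured ratio and not a bound, although a low signal above controls can still hold probe background. Wild-type replicate 1 was lowest and wild-type replicate 2 highest, so the spread lay within wild type.

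The secretoglobin Scgb1a1, the main secreted protein of airway club cells, did not follow the others. In wild type the values were 3.28, 3.43 and 3.33, with 3.32 and 3.43 in knockout replicates 1 and 2, with 3.32 in the sixth array. In every array the value is under its highest Bacillus control, and the single array lies inside the range of the other 5, whose mean was 3.36 ± 0.07 (SD, n = 5). With all 6 values at background, no fold is given. No Scgb1a1 signal above background was thus detected in any sample, including the one where the other 6 measured genes were high.

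Reg3g, a C-type lectin that binds Gram-positive bacteria at epithelial surfaces, had the second smallest spread of the 7 genes in the 5 arrays, after Scgb1a1. Its probe set read 3.71, 3.53 and 3.76 in wild type, 3.70 and 3.80 in knockout replicates 1 and 2, but 12.62 in the sixth array. The mean of the 5 was 3.70 ± 0.10 (SD, n = 5), a log2 difference of 8.92 and at least 313-fold. The 5 values are all below background and overlap between genotypes.

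Ltf encodes lactoferrin, an iron-binding antimicrobial protein of gland secretions that is also stored in neutrophil granules. The 3 wild-type arrays gave 4.06, 3.87 and 3.83, followed by 3.87 and 4.29 in knockout replicates 1 and 2, but 13.15 in the sixth array. The mean of the 5 was 3.98 ± 0.20 (SD, n = 5), a log2 difference of 9.17 and at least 453-fold. Knockout replicate 2 was the highest of the 5 and came close to the control of its array without passing it.

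Aqp5, the water channel of the apical membrane of serous gland cells, was the other member above background in every array. In wild type it read 4.95, 5.01 and 5.15, with 5.25 and 5.35 in knockout replicates 1 and 2, but 10.93 in the sixth array. The mean of the 5 was 5.14 ± 0.16 (SD, n = 5), and the difference of 5.78 corresponds to 55.1-fold. The 2 knockout values lay above the 3 wild-type values, a pattern that 9.19% of all genes had in these 5 arrays.

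**Figure D1:**
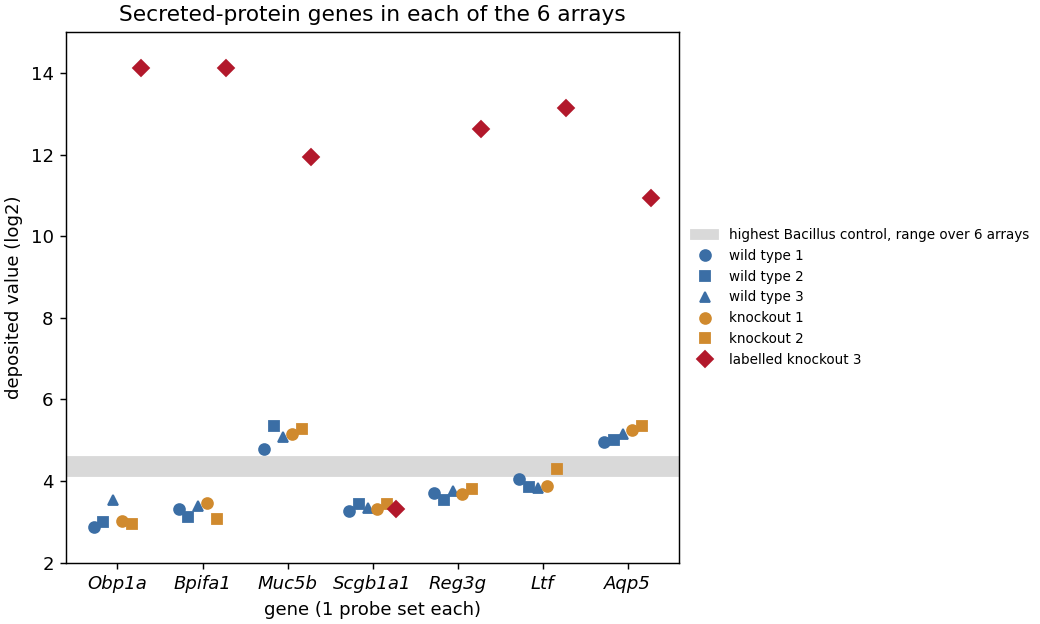
Deposited log2 value of the 7 measured genes (horizontal axis, 1 probe set each) in each of the 6 arrays, with the grey band marking the range of the highest Bacillus control, 4.130 to 4.598. For 6 genes the array labelled knockout replicate 3 lies between 10.93 and 14.12, apart from the other arrays, and for Scgb1a1 it lies among them below the band.

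The spread of the members over the 5 arrays differed from gene to gene. The median SD over all genes was 0.113, with quartiles of 0.0797 and 0.156. Obp1a, Muc5b, Ltf, Bpifa1 and Aqp5 had SDs above the upper quartile, Reg3g lay between the quartiles and Scgb1a1 below the lower one. The Bacillus probe sets themselves differed by between -0.22 and 0.09 between the single array and the mean of the other 5, with a median of -0.07. None of the 6 differences above is of that size.

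The families of the members were then read in the same contrast, again as a description. Lists were written with earlier results of these data known, and all values are differences of the array labelled knockout replicate 3 from the mean of the other 5, where the median of all genes was -0.05. Of all genes, 7.44% were above by more than 2 and 4.49% were as far below. The members were chosen on this contrast, so the count of a list that holds a member is also given without it. Odorant-binding lipocalins were high almost throughout, with 7 of 8 measured genes above by more than 2 and a median of 9.45. Without Obp1a the count was 6 of 7 and the median 9.38. Obp2a, an odorant-binding protein of the nasal glands, read 14.21 against 3.48 ± 0.29 (SD, n = 5), at least 944-fold. Lcn11 read 13.75 against 3.57 ± 0.22 (at least 687-fold), and Lcn4 read 12.68 against 3.15 ± 0.16 (at least 326-fold), with a difference of 2.93 in its second probe set. Mup5, a major urinary protein family member, read 13.69 against 4.31 ± 0.10. Lcn3, a secretory lipocalin of vomeronasal and nasal glands, was above background in all 5 arrays and read 12.68 against 4.70 ± 0.19, or 253-fold. Lcn2, the iron-siderophore binding lipocalin of neutrophils and inflamed epithelium, differed by 4.72. Lcn12 alone did not separate, with a difference of -0.22.

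Among the BPI fold proteins, 7 of 11 measured genes were above by more than 2, with a median of 3.20. Without Bpifa1 the count was 6 of 10 and the median 2.86. Bpifb9b read 14.18 against 3.73 ± 0.09 (SD, n = 5), at least 925-fold, and its second probe set differed by 10.90. Bpifb3 read 13.83 against 5.14 ± 0.10 (414-fold, above background in all 5 arrays), and Bpifb5 read 11.60 against 3.99 ± 0.19. Lbp, the lipopolysaccharide-binding protein, differed by 5.14, and by 1.59 in its second probe set. Bpifb1 differed by 3.20 and by 4.66 in its other probe set, and Bpifa2, a parotid secretory protein, differed by 2.52. Bpifa3, Bpifa5, Bpifb2 and Bpifc differed by between -0.17 and 0.14, so this family split into genes that were high and genes that were not.

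Of 12 measured mucins, 6 were above by more than 2, with a median of 2.15. Without Muc5b the count was 5 of 11 and the median 1.88. Muc2, a gel-forming mucin, read 11.37 against 4.51 ± 0.11 (SD, n = 5), and Muc5ac, the gel-forming mucin of surface goblet cells, read 8.96 against 5.30 ± 0.21. Muc16, a membrane-bound mucin, read 9.58 against 3.15 ± 0.12, at least 38.1-fold. Muc1 differed by 4.41, Muc15 by 2.43 and Muc4 by 1.88. Muc13 (0.68) and Muc20 (0.63), which were above background in all 5 arrays, differed little, and Mucl1 (-0.42) was at background in all 6.

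Secretoglobins had 3 of 6 measured genes above by more than 2, and 3 of 5 without Scgb1a1. Scgb2b27 read 11.40 against 2.96 ± 0.12 (SD, n = 5), at least 135-fold, and Scgb1b27 read 11.65 against 5.24 ± 0.07, or 85.1-fold. They encode subunits of androgen-binding proteins, which rodents secrete into saliva and tears. Scgb3a1, a secretoglobin of airway epithelium, read 7.99 against 4.57 ± 0.18. Scgb3a2, which like Scgb1a1 is a product of airway club cells, differed by 0.04, and Scgb1b2 by -0.02. Both were at background in all 6 arrays.

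In the Reg family, 1 of 7 measured genes was above by more than 2, and it was Reg3g, so without this member the count was 0 of 6. Its relatives Reg1, Reg2, Reg3a, Reg3b, Reg3d and Reg4 differed by between -0.31 and 0.05. Of these, Reg2 was above the highest Bacillus control in all 5 other arrays. Of 12 measured aquaporins, 2 were above by more than 2: Aqp5 and Aqp3, the basolateral water and glycerol channel of epithelia, which read 8.96 against 4.65 ± 0.18 (SD, n = 5). Without Aqp5 the count was 1 of 11 (9.09%), near the 7.44% of all genes. Of the other 3 probe sets of Aqp3, 2 differed by 5.84 and 6.22 and 1 by 0.499. Aqp4, the channel of Müller glia and of olfactory epithelium, read 11.25 against 9.61 ± 0.07, and Aqp1 differed by 0.68. Aqp6 differed by -0.88, and by between -2.09 and -0.34 in its other probe sets.

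**Figure D2:**
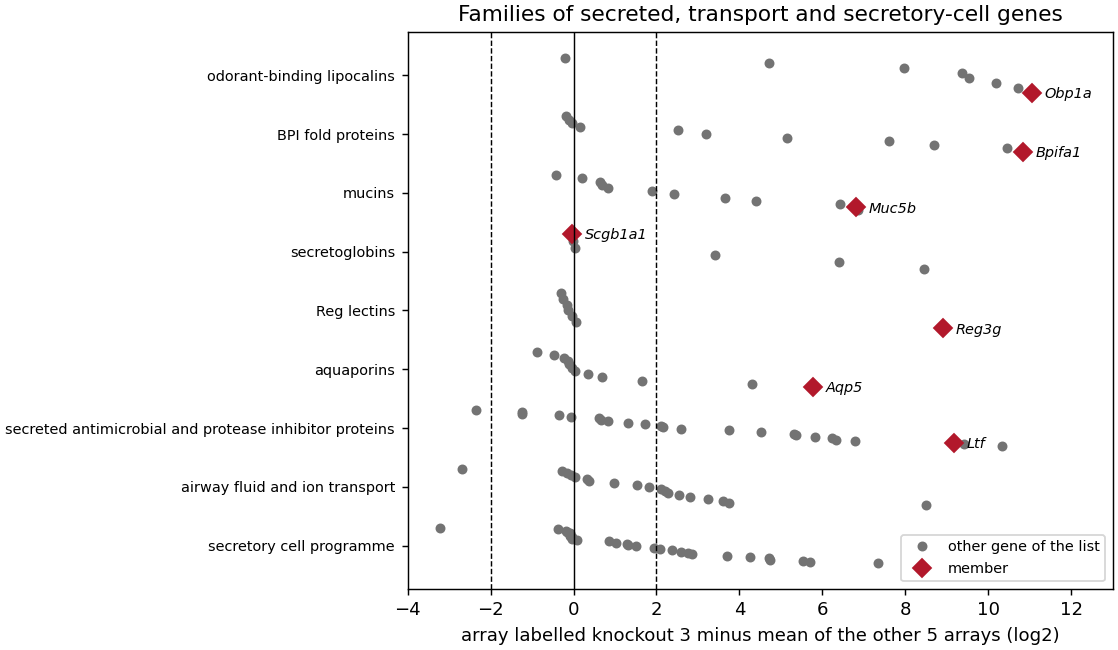
Difference on the log2 scale between the array labelled knockout replicate 3 and the mean of the other 5 arrays (horizontal axis) for every measured gene of 9 lists (rows), members as diamonds, dashed lines at 2 and -2. Lipocalins lie to the right as a group except Lcn12, whereas Reg3g stands alone among 7 Reg lectins.

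Genes that work beside the members were read the same way. Of 24 genes on a list of mainly secreted antimicrobial and protease inhibitor proteins, 14 were above by more than 2 and 1 below. Without Ltf, 13 of 23 were above. The list also holds genes of other kinds, among them Ltbp2 (3.74), Tmem213 (2.17) and Prom1. Wfdc18 read 14.44 against 4.11 ± 0.21 (SD, n = 5). Dmbt1, a scavenger receptor protein of saliva and mucus, read 12.76 against 3.34 ± 0.20, at least 346-fold. Pglyrp1, a peptidoglycan-binding protein, differed by 6.79, Pigr, which carries polymeric immunoglobulin across gland epithelium, by 6.34, and Wfdc2 by 5.83. The lysozyme gene Lyz1 differed by 6.22, and by 6.26 and 0.23 in its other probe sets. Lpo, the peroxidase of gland secretions, was at background in all 6 arrays (-0.06). Jchain and Cst3 differed by -1.25 and -1.24. The gene below by more than 2 was Prom1, a photoreceptor disc protein, with -2.35.

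Of 19 airway fluid and ion transport genes, 9 were above by more than 2 and 1 below. Car6, the carbonic anhydrase secreted into saliva and nasal mucus, read 12.04 against 3.54 ± 0.16 (SD, n = 5), at least 210-fold. Ano1, a calcium-activated chloride channel of secretory cells, read 9.47 against 5.73 ± 0.08. Cftr, the chloride channel mutated in cystic fibrosis, differed by 2.81, and by -0.07 in its second probe set. The sodium channel subunits Scnn1a, Scnn1b and Scnn1g differed by 2.27, 1.82 and 1.54. The gene below was Car2 (-2.68), a carbonic anhydrase of Müller glia among other cells.

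The secretory cell programme, a list of transcription factors and processing enzymes of gland and goblet cells, had 12 of 28 measured genes above by more than 2 and 1 below. Agr2, a disulfide isomerase needed to fold mucins, read 10.87 against 3.53 ± 0.04 (SD, n = 5). Elf5 and Ehf, epithelial ETS factors, differed by 5.69 and 5.52, Foxa1 by 4.73, and Bhlha15 (Mist1), a regulator of exocrine secretory cells, by 4.26. The second probe set of Bhlha15 differed by 0.22 and that of Elf5 by 3.89, and the other 3 of Ehf by 3.29, 3.19 and 0.14. Spdef, the goblet cell ETS factor, read 6.55 against 5.05 ± 0.24. Foxa2 (-0.08), Foxa3 (0.09) and Nkx2-1 (-0.17), the last a lung and thyroid regulator, did not separate. Clca1 was the gene below, with -3.22, and its second probe set differed by -0.24.

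The measured genes next to the members on their chromosomes were named from RefSeq's gene order, taking 2 on each side. Of 28 such neighbours, 7 were above by more than 2 in the array labelled knockout replicate 3 and 1 was below (Lrrc2 near Ltf, -3.29), where 7.44% and 4.49% of all genes were. On chromosome X, Obp1a stood between 5430402E10Rik, which RefSeq lists with an odorant-binding protein synonym and which read 14.07 against 3.05 ± 0.31 (SD, n = 5), and Gm14743, which read 13.74 against 2.87 ± 0.21. The next genes out, Pbsn (0.46) and 4930480E11Rik (-0.10), did not separate. Whether these probe sets tell close relatives of Obp1a apart was not tested.

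On chromosome 7, Muc5b follows Muc2 and Muc5ac, with differences of 6.86 and 3.66, and precedes Tollip (0.74) and Brsk2 (-1.72). On chromosome 2, the neighbours of Bpifa1 at 1 place, Bpifa3 and Bpifa5, differed by -0.03 and -0.17, and those at 2 places, Bpifa2 and Bpifb1, by 2.52 and 3.20. Reg3g stood alone beside Reg1 (-0.16), as did Aqp5 between Aqp2 (0.35) and Aqp6 (-0.88), and Ltf between Rtp3 (-0.28) and Ccrl2 (0.39). Next to Scgb1a1 on chromosome 19 lies Ahnak, a large scaffold protein gene, with 4.41. Scgb1c1 has no value, and of its neighbours on chromosome 7, Urah differed by 3.49 and C330022C24Rik by -0.22.

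**Figure D3:**
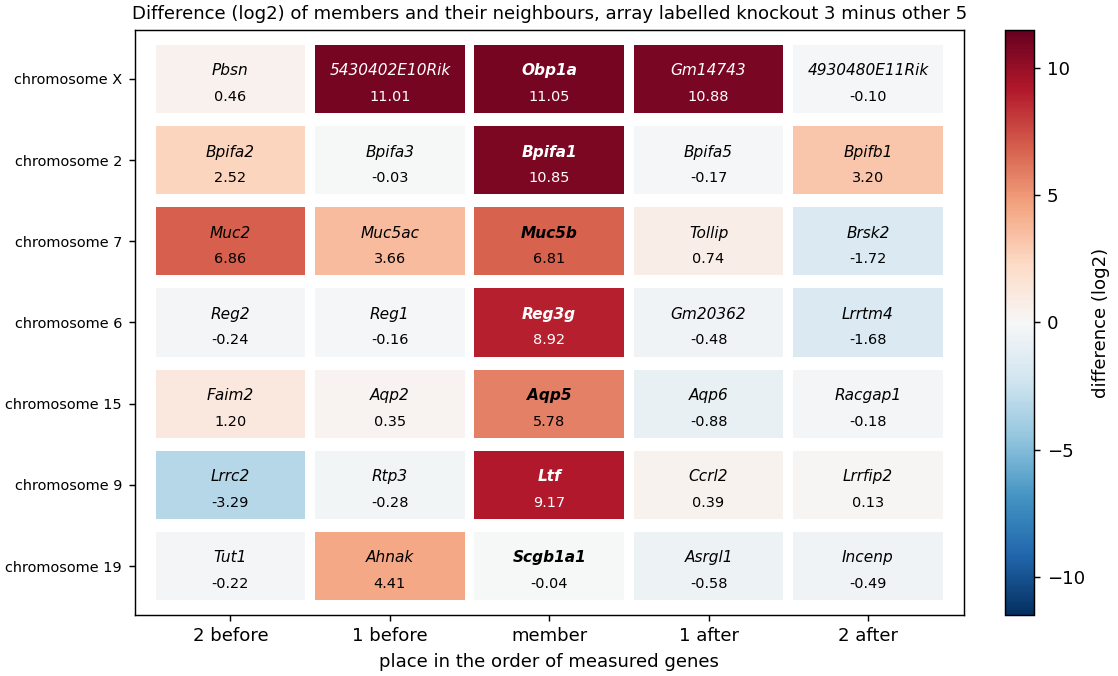
Difference on the log2 scale (colour and number) of each measured member (centre column) and its 2 measured neighbours on each side in RefSeq's gene order, with the chromosome at the left. High values run across Obp1a and its nearest neighbours and across the mucins before Muc5b, whereas Reg3g, Aqp5 and Ltf have neighbours between -3.29 and 1.20.

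For each member the 2 genes with the smallest root mean square difference over the 6 arrays were taken as the most alike in pattern and level. For Obp1a these were 5430402E10Rik (0.106 log2 units) and Gm14743 (0.265), the same 2 as its neighbours. For Bpifa1 they were 5430402E10Rik (0.309) and S100a5 (0.310). Muc5b was nearest to Scgb1b27 (0.274) and Bgn (0.451), and Reg3g to Car6 (0.315) and Cyp1a2 (0.330). Ltf was nearest to Stoml3 (0.245) and Cbr2 (0.291), which are an olfactory neuron and a sustentacular cell marker in the lists used below. Aqp5 was nearest to Atp10d (0.200) and Col5a2 (0.214). Scgb1a1 was nearest to Btbd18 (0.0310) and G6pc (0.0467), both at background. With 1 array apart from 5, this measure mostly reflects the size of that array's difference.

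Marker lists of cell types that could carry these transcripts were read in each array. Some of their genes, such as Muc2 and Camp, also stand in the family lists above, so the counts are not separate. In the array labelled knockout replicate 3, 7.44% of all genes were above by more than 2 and 4.49% were as far below. Of the markers, 7 of 9 for olfactory neurons and 7 of 8 for sustentacular cells were above by more than 2. The mean olfactory neuron marker read 11.22 there and between 6.01 and 6.19 in the other 5 arrays, and the mean sustentacular marker 11.27 and between 4.22 and 4.38. Multiciliated epithelium had 6 of 10 above, with a mean of 8.34 and between 5.46 and 5.54. These lists moved with the members in the same array, and their part in the members' values was not tested.

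Markers of lung alveolus were not high as a list, with 1 of 8 above (12.5%, where 7.44% of all genes were) and a median difference of 0.02. The mean was 5.95 there and between 5.36 and 5.55 in the others, the surfactant genes Sftpc (0.04), Sftpb (-0.01) and Sftpa1 (-0.21) did not separate, and the 1 above was Sftpd (4.88), a collectin made in several mucosae. Salivary and lacrimal gland markers had 6 of 15 above and 1 below, with a mean of 6.50 there against between 4.39 and 4.55. Of the 6 above, Lcn11, Bpifa2, Bhlha15 and Elf5 also stand in the family lists. Pip, a secreted protein of salivary and lacrimal glands, differed by 7.15, and by 1.83 in its second probe set. Prol1 and Smr3a were at background in all 6 arrays. Amy1, above background in all 6, read 6.01 against 9.89 ± 0.08 (SD, n = 5), a difference of -3.89 from a high level in the other 5 arrays. The Klk1 probe set with the highest mean differed by -0.07 and 1 other by 0.26. The 2 remaining Klk1 probe sets read 11.22 against 3.22 ± 0.07 and 11.18 against 3.14 ± 0.13. Harderian gland had 4 of 8 above (mean 6.95 against 5.25 to 5.47). Cornea and conjunctiva had 5 of 12 above and 1, Pax6, below (mean 7.23 against 5.44 to 5.72). Pax6 read 7.25 against 10.34 ± 0.13 (SD, n = 5), and Krt12, the corneal keratin, was at background in that array. The part of these lists in the members' values was not tested.

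Neutrophil markers bear on Ltf, which is in that list. Without it, 7 of 13 were above by more than 2, with a mean of 7.28 in the array labelled knockout replicate 3 and between 4.18 and 4.40 in the other 5. The granule and cytosolic proteins S100a8, S100a9, Camp and Ngp differed by 7.65, 7.18, 5.36 and 5.28. Lcn2, Mpo and Prtn3 differed by 4.72, 2.40 and 2.23. The other 6 stayed within 2, among them Elane with 1.20. The chemokine receptor Cxcr2 was at background in all 6 arrays (0.09). Plasma and B cell markers had 1 of 8 above (12.5%, where 7.44% of all genes were), Igha with 2.10, and a mean of 5.80 against 5.08 to 5.30. The lowest difference of that list was -1.25, for Jchain, which read 6.42 against 7.67 ± 0.04 (SD, n = 5). Other probe sets read higher in that list: 2 more of Igha differed by 4.07 and 4.40, and of 11 for Ighm, whose brightest differed by -0.33, 1 differed by 2.95 and 1 by 1.95. The neutrophils' part in the value of Ltf was not tested. Müller glia markers had 0 of 10 above and 3 below.

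**Figure D4:**
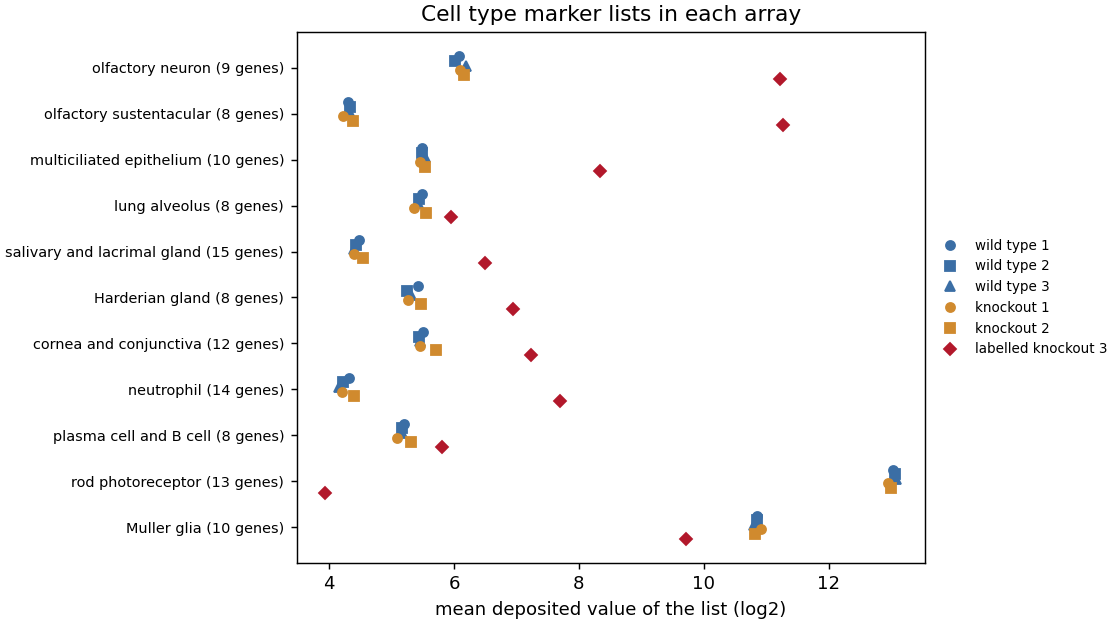
Mean deposited log2 value of each marker list (rows, with the number of measured genes) in each of the 6 arrays. In the array labelled knockout replicate 3 the olfactory neuron and sustentacular lists read 11.22 and 11.27 and the rod list 3.94, whereas the other 5 arrays lie close together in every list.

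The comparison that the design states sets 3 knockout-labelled against 3 wild-type arrays, and asks which transcripts differ when Nxnl2 is missing. Of the 7 members 0 were called by limma, with a background of 0% (0 of 18193 genes at an adjusted p of 0.05), and 0 members had an unadjusted p under 0.05, where 0.726% of all genes (132) did. The knockout minus wild-type log2 change was 3.56 (SE 3.18) for Obp1a, 3.61 (SE 3.10) for Bpifa1, 2.38 (SE 1.92) for Muc5b, 3.03 (SE 2.53) for Reg3g, 3.19 (SE 2.59) for Ltf and 2.14 (SE 1.61) for Aqp5, each with a limma adjusted p = 0.745. For Scgb1a1 it was 0.01 (SE 0.10, limma adjusted p = 0.968). Each of the 6 large changes comes from a single array among the 3, and the array that chose the members is in this fit, so these values are a description.

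Leaving out that array gives 3 wild-type arrays against knockout replicates 1 and 2, the 5 arrays that stand together. Here 0 of the 7 members passed an adjusted p of 0.05 by limma, where 0.011% of all genes (2, Nxnl2 and Erdr1) did. The count over all genes was 1 without wild-type replicate 3 and 8 without either knockout replicate, and 0 members were called in any of these. The log2 change was -0.15 (SE 0.18) for Obp1a, with a 95% interval from -0.56 to 0.25. It was -0.01 (SE 0.14) for Bpifa1, with an interval from -0.32 to 0.30, and 0.14 (SE 0.15) for Muc5b, from -0.22 to 0.49. Each interval includes 0 and spans less than 1 log2 unit.

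For Scgb1a1 the change was 0.03 (SE 0.10), with an interval from -0.19 to 0.25. Reg3g gave 0.08 (SE 0.10), from -0.16 to 0.31, and Ltf 0.16 (SE 0.14), from -0.15 to 0.48. The limma adjusted p was 0.999 for each of the 7 genes. Because 5 of the 7 probe sets read below the Bacillus controls in all of these arrays, their intervals describe background signal, and a change beneath background could not have been seen.

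Aqp5, above background in each of the 5 arrays, was the member with the largest change, 0.26 (SE 0.10), with an interval from 0.03 to 0.49. With a limma adjusted p = 0.999 it did not pass. It was the 1 member of 7 at an unadjusted p under 0.05, a level that 3.45% of all genes (628) reached. That count of members was 0 with the trend and robust options and without wild-type replicate 1, wild-type replicate 2 or knockout replicate 2, and 2 without knockout replicate 1. Its values did not overlap between the genotypes, with knockout higher, as for 9.19% of all genes in the 5 arrays. Including the array labelled knockout replicate 3 could not break this pattern, because Aqp5 was chosen on a contrast where that array reads high. Over the 6 arrays 4.64% of all genes had it. In the 5 arrays no member lay wholly below wild type, as 7.27% of genes did. None did in the 6 (4% of genes), where the choice of members largely fixed this outcome.

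**Figure D5:**
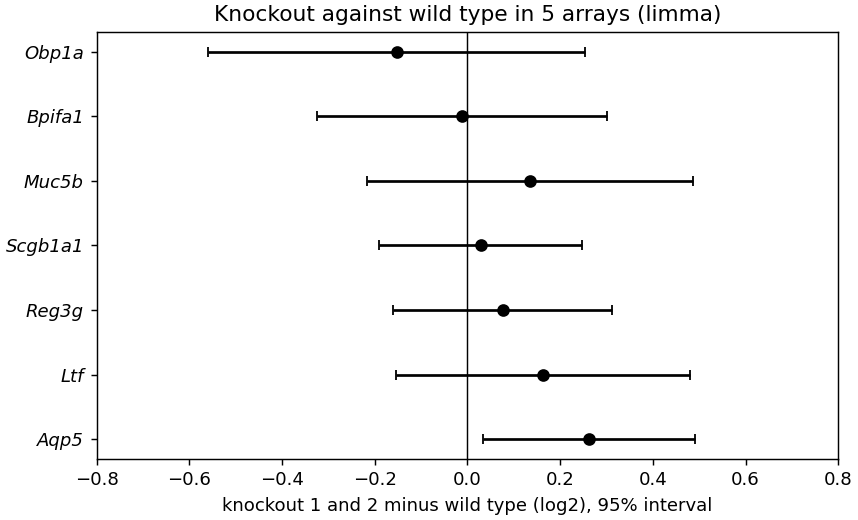
Log2 change of knockout replicates 1 and 2 against 3 wild-type arrays (horizontal axis) for the 7 measured genes, with points for limma estimates and bars for 95% intervals. The intervals of 6 genes include 0, and that of Aqp5 runs from 0.03 to 0.49.

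The families gave 0 calls in the same 5 arrays, in each of the 9 lists of lipocalins, BPI fold proteins, mucins, secretoglobins, Reg lectins, aquaporins, antimicrobials, ion transporters and secretory factors, where 0.011% of all genes were called. At an unadjusted p under 0.05 each list held between 0 and 2 genes. The smallest adjusted p among them was that of Lyz1, whose knockout minus wild-type difference was 0.88 log2 units (SE 0.17) at a limma adjusted p = 0.792. Obp2a had a change of 0.38 (SE 0.15) and Muc1 of 0.24 (SE 0.09), both with a limma adjusted p = 0.999. Median changes of the 9 lists lay between -0.01 and 0.09, with 0.0048 over all genes.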

How the data were processed

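Retinal RNA was biotin-labelled and hybridised to one-colour Affymetrix arrays, per the labels' protocols. Per the submitters' processing notes, RMA (background correction, normalization between arrays, summary per probe set) gave the deposited log2 values. Its software, version and chip definition: not given in the sources used here. Array medians of 5.77 to 5.80 show the shared distribution it imposes, which hides differences in total RNA. Detection calls were not used. Of 45101 probe sets, 64 controls were left out. Platform annotation gave 34945 probe sets 1 gene, 932 several and 9160 none. Each gene was represented by its probe set of highest mean, and 18031 of 18193 genes matched RefSeq (GRCm38.p6) by Entrez identifier, used for names and gene order. The number of arrays limits the precision.

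A difference of over 2 on the log2 scale counted as above or below. A bound replaces each value below an array's highest Bacillus control by that control. The genotypes were compared with limma 3.58.1 (lmFit, eBayes) in R 4.3.3. Tests were two-sided, p-values were adjusted over all genes by Benjamini-Hochberg, and 0.05 was the threshold. The procedure was tested on simulated data. Figures used matplotlib 3.10.9. The alternatives were other scalings, variance models, probe set rules, filters on dim genes, a replicate block and each array left out.

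The members and all lists were chosen with earlier results of these data known. The text names the members, their 2 most alike genes, a selection from the 2 neighbours on each side, and a selection from up to 6 genes of each family list with the largest differences plus those above background; other genes of the family and marker lists were named after their values were seen.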

Additional observations from a re-analysis of the deposited data

How the results depend on the processing

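Of the 7 measured members, 6 lay above in the array labelled knockout replicate 3 under all 15 alternatives (6 to 6). These covered scaling, probe set rule, centre, wild-type arrays only, a minimum of 1 or 4, a Bacillus floor and each other array left out. The members were chosen on this contrast, and the smallest of the 6 differences was 5.78, so the count could hardly have moved. With the Bacillus floor the differences became 9.79 for Obp1a, 9.79 for Bpifa1, 8.82 for Ltf and 8.29 for Reg3g, which are the bounds, since values below the floor are replaced by it. No member was called under any of the 16 alternatives with 6 arrays or the 15 with 5 arrays (0 to 0 with an array left out); the smallest adjusted p of a member was 0.537 and 0.771. Removing genes below the 40th percentile left 2 members to test in 6 arrays and 0 in 5. Over all genes, array weights gave 2 calls in place of 0 with 6 arrays, and leaving out an array gave 0 to 2, the 2 without knockout replicate 3. With 5 arrays, the mean of all probe sets gave 1 call in place of 2, and leaving out an array gave 1 to 8, with 1 without wild-type replicate 3 and 8 without either knockout replicate 1 or knockout replicate 2, which leaves 1 knockout array assumed to vary like the wild type. Same-numbered deviations correlated at -0.07, -0.01 and -0.08. These values cannot decide whether replicate numbers pair the samples, because the array labelled knockout replicate 3 stands far apart from its group. With the replicate block, 0 genes were called in 6 arrays and 3 in 5, none a member. Signal over background limits these results: 5 of 7 members were not above the Bacillus controls in the 5 arrays.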
